A study of Homo sapiens with 12 samples.

Results

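Importins, exportins and nucleoporins carry proteins and RNA between cytoplasm and nucleus, and their transcripts were examined in Huh7 cells after TRPC1 silencing. The genes were chosen by symbol in the probe annotation of the array. The choice took the importin alpha (KPNA), importin beta (KPNB), importin (IPO), exportin (XPO), transportin (TNPO) and numbered nucleoporin (NUP) genes together with CSE1L, RAN, RANBP1, RANBP2, RANGAP1, RCC1, NUTF2, TPR, POM121, NDC1 and SEH1L. It named 79 of the 48803 probes, which measure 56 genes. A probe was tested when its detection p-value, the scanner's measure of signal against negative controls, was under 0.01 on at least 5 of the 12 arrays. This kept 64 probes of 51 genes, out of 13102 probes and 8968 named genes in all. RANBP2 was detected on 2 arrays, and KPNA5, KPNA7, NUP210L and POM121 on 0 of 12, so these 5 genes were not tested.

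Huh7 is a cell line grown from a human hepatocellular carcinoma, and TRPC1 is a cation channel linked to store-operated Ca2+ entry. Control cells received 2 µg of an empty vector and siTRPC1 cells 2 µg of a TRPC1-silencing vector, whose backbone also carries GFP and a neomycin resistance gene. RNA was taken after 48 h and hybridised to 6 control and 6 siTRPC1 arrays (Illumina HumanHT-12 v3). The comparison asked which genes change when TRPC1 is silenced. The design has 1 cell line and 1 silencing sequence, the control was an empty vector rather than a non-targeting hairpin, and transfection was transient, so not every cell carried the vector. The labels do not say whether arrays of a group came from separate cultures, so p-values measure the spread between these samples, which may be technical. In bulk RNA, fewer cells of a type and less RNA per cell cannot be told apart.

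In a nuclear pore, stacked rings of scaffold nucleoporins hold a channel filled with flexible phenylalanine-glycine repeats, with filaments on the cytoplasmic face and a basket on the nuclear face. Importins bind cargo in the cytoplasm and release it in the nucleus when they meet RAN loaded with GTP, whereas exportins need RAN-GTP to bind cargo and drop it once GTP is hydrolysed. Dividing and secreting cells such as hepatoma cells depend on this traffic for ribosome assembly, transcription factor entry and mRNA export.

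Values are log2 intensities after background correction and quantile normalisation. Unless stated, comparisons used 5 control and 5 siTRPC1 arrays (replicates 1, 2, 3, 4 and 6). Replicate 5 of each group was left out as in the published analysis, which judged samples by their TRPC1 readout, and results with all 12 arrays are given beside. The log2 fold change (log2FC) is siTRPC1 minus control, with the standard error (SE) of the limma fit. A gene was called at an adjusted p under 0.05 over all 13102 probes, and a gene with several probes was counted by its brightest.

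Mean raw intensity per array ran from 457.5 to 687.9 and detected probes from 12292 to 13462. Control 1 (479.7) and control 2 (457.5) had the lowest mean intensities. All 9 hepatocyte markers with a probe, among them ALB, AFP and TTR, were detected on 12 of 12 arrays. Of the 9, 1 was called (1.15% of all named genes in either direction), and their log2FC ran from -0.2 to 0.24. COL1A1, COL3A1, CDH5, VWF, KDR, PTPRC and CD3E, markers of fibroblasts, endothelium and leukocytes, were detected on 0 arrays, while COL1A2, PECAM1 and CD68 were detected on 12. The mean log2 level of the leukocyte list was 7.11 to 7.30 in controls and 7.17 to 7.75 in siTRPC1 arrays, that of the fibroblast list 6.43 to 6.77 and 6.52 to 6.89, and that of the endothelial list 6.51 to 6.76 and 6.47 to 6.91. Their part in the results was not tested.

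TRPC1, the silenced gene, read 8.77, 8.74, 8.79, 8.75 and 8.82 in control replicates 1, 2, 3, 4 and 6, and 8.73, 8.56, 8.50, 8.57 and 8.60 in the siTRPC1 replicates. Every siTRPC1 value lay below every control value, but by only 0.01 between siTRPC1 1 and control 2. The log2FC was -0.18 (SE 0.10, adjusted p = 0.344, limma), and the exact two-sided permutation p was 0.00794, the smallest that 5 against 5 arrays allow. The published analysis left out replicate 5 of each group for low correlation between the array and RT-PCR values of TRPC1. The separation and its permutation p therefore rest on arrays chosen by TRPC1 itself, and are no independent test of silencing. Control 5 read 9.05 and siTRPC1 5 read 8.85, so the groups overlapped over 12 arrays (log2FC -0.19, adjusted p = 0.304, exact permutation p = 0.0303). The labelled silencing therefore showed as a small difference at this probe that did not pass adjustment over all probes. The paper also reports lower TRPC1 by quantitative RT-PCR, and lower TRPC1 protein by western blot after a longer incubation.

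To place the transport genes on sequence, the 250 bases before the RefSeq gene start (GRCh38.p14) are shown for 4 of them. IPO7 is the member with the largest difference, IPO8 its paralog with nearly none, RAN drives the transport cycle, and NUP107 stands for the nucleoporins whose starts carry the ETS core. Capitals mark matches to 6 motifs searched on both strands. These were GGGCGG as the GC box, CCAAT as the CCAAT box, CCGGAAG as the core read by ETS factors, CACGTG as the E-box, AAGATGG as the YY1 core and TATAAA as the TATA box. The windows are chr11:9384402-9384651 (plus strand) for IPO7, chr12:30695870-30696119 (minus strand) for IPO8, chr12:130871816-130872065 (plus strand) for RAN and chr12:68686728-68686977 (plus strand) for NUP107.
IPO7: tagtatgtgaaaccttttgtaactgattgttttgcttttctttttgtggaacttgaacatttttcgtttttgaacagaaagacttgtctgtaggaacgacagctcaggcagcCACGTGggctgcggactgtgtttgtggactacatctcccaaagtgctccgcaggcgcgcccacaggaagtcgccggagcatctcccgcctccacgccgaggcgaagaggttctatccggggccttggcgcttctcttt
IPO8: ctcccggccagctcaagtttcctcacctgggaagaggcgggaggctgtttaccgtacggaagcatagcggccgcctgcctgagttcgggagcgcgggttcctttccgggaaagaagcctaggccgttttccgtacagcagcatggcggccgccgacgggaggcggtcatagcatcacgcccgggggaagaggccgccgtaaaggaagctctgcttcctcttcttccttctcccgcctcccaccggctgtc
RAN: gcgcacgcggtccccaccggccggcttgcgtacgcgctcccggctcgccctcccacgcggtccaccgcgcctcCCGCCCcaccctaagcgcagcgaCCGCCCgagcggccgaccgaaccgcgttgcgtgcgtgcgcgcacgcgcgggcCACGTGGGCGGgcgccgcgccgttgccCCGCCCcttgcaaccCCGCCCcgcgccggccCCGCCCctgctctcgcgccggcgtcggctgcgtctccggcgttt
NUP107: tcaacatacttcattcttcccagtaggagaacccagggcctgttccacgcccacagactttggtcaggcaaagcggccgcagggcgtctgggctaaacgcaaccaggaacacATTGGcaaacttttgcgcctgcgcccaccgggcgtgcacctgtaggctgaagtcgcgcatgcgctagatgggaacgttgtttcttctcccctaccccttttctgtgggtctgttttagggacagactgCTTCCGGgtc

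The IPO7 window held 1 E-box, 138 bases before the start, and the IPO8 window held none of the 6 motifs. RAN held 6 GC boxes and 1 E-box that overlaps a GC box. NUP107 held a CCAAT box and an ETS core, both read on the other strand, the latter 10 bases before the start. RefSeq promoters were matched for 49 of the 56 genes. The ETS core was present in 14 of 49 (28.6%), against 17.2% of the promoters of all genes tested and 8.52% of all promoters. Of these 14, 10 were nucleoporin genes (NUP107, NUP160, NUP214, NUP35, NUP37, NUP50, NUP54, NUP58, NUP88 and POM121), and the others were SEH1L, also a pore protein, IPO4, RCC1 and TNPO3. The CCAAT box was in 44.9% (36.3% of tested genes). The E-box was in 7 of 49 (14.3%, against 9.40%), namely IPO4, IPO7, KPNA3, NUP188, NUP50, RAN and TNPO2. The GC box was in 53.1% (67.6% of tested genes), the TATA box in IPO11 and KPNA6 (4.08%, against 5.39%) and the YY1 core in NUP188 and XPO6 (4.08%, against 3.59%). A match describes letters only and was not set against the fold changes.

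After silencing, the importin IPO7 was higher, the nucleoporin NUP43 was called higher on a probe near background, and the other 49 genes did not pass the test. These were 2 of 51 genes called higher (3.92%, against 0.747% of all named genes), and 0 of 51 were called lower (0.401% of all named genes). NUP43 entered the test through the siTRPC1 arrays, with detection on 2 of 6 control and 6 of 6 siTRPC1 arrays, so the count of 2 is no support for a shift of the members. With 12 arrays, IPO7 alone was called (1 of 51, 1.96%, against 0.948%), with 0 lower (0.647% of all named genes). With arrays of adjoining replicate numbers as a random block, 0 were called higher over 10 or 12 arrays (adjusted p for IPO7 = 0.0578 and 0.0666, limma). The median log2FC was -0.031 over the 51 genes and -0.005 over all named genes. Of the 51, 21 lay above 0 and 30 below (58.8%, against 51.4% of all named genes), and the middle of the range was narrow, from -0.145 to 0.092 at the quartiles.

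**Figure D1:**
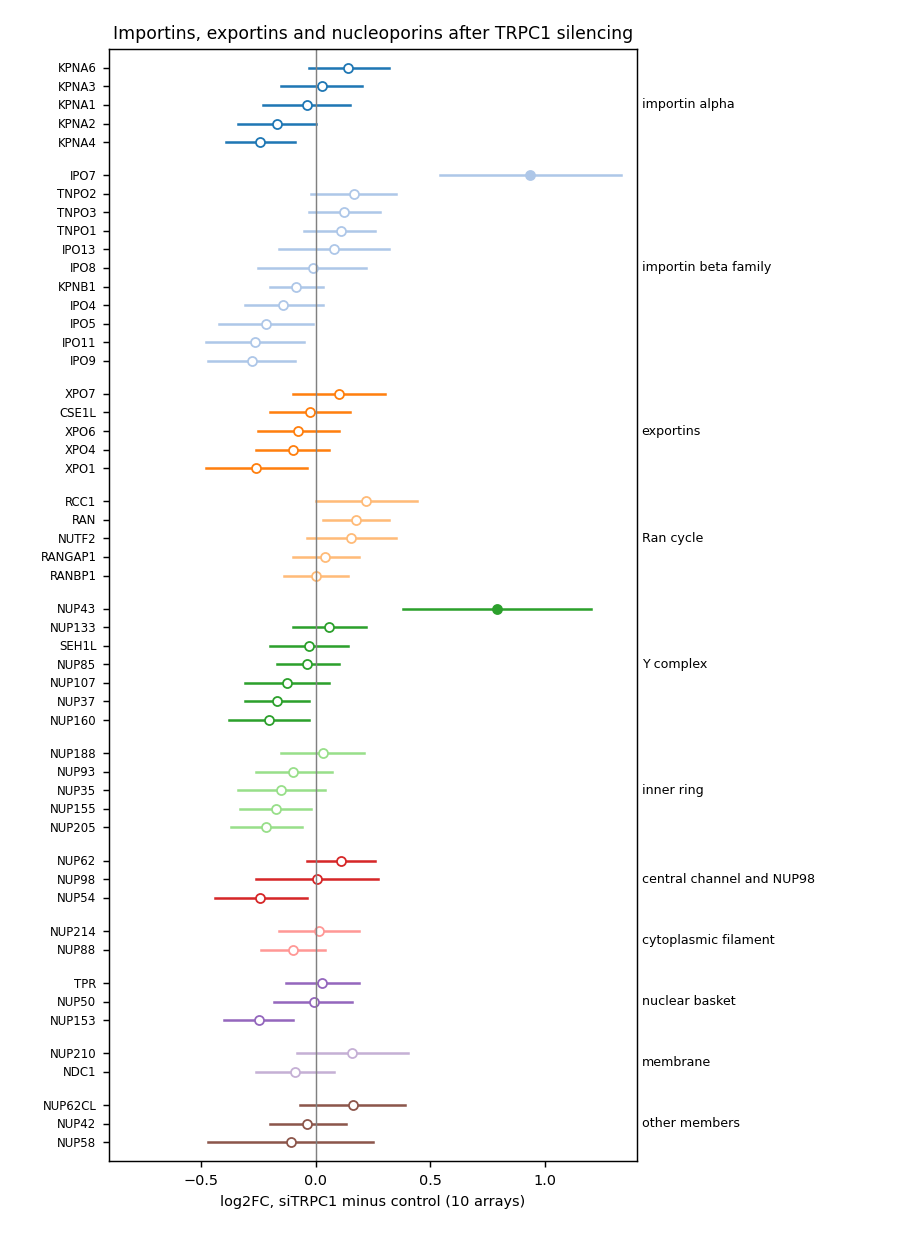
Log2FC (siTRPC1 minus control, 5 and 5 arrays) of the 51 tested genes by role, with 95% confidence intervals of the limma fit as bars and filled points for genes called at adjusted p under 0.05. IPO7 (0.93) and NUP43 (0.79) stand to the right, while the other 49 genes lie between -0.28 and 0.22.

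IPO7 is an importin beta family receptor that brings ribosomal proteins into the nucleus and, paired with KPNB1, histone H1. Control arrays 1, 2, 3, 4 and 6 read 7.31, 7.50, 8.05, 7.86 and 8.66. The siTRPC1 arrays read 8.63, 8.82, 9.14, 8.96 and 8.51. Of the 5 controls, 4 lay below every siTRPC1 array, and control 6 lay within the siTRPC1 range. The means were 7.88 ± 0.53 in control and 8.81 ± 0.25 in siTRPC1 (SD, n = 5 each), a log2FC of 0.93 (SE 0.19, 95% confidence interval 0.54 to 1.33) or 1.91-fold. The adjusted p was 0.0175 (limma) and the exact permutation p 0.0238. Raw intensity in the same order was 99.5, 111, 273, 234.0 and 372 in controls and 439, 526, 607, 483 and 364 in siTRPC1. The lowest raw values, in control 1 and control 2, came from the arrays with the lowest mean intensity. The probe was detected on 12 of 12 arrays.

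The size of the IPO7 difference varied with the replicates. Control 5 read 8.75 and siTRPC1 5 read 8.68, and the 12-array log2FC was 0.77 (adjusted p = 0.0401). Arrays of a group correlated best with those of an adjoining replicate number, although the labels name no batch. Sets of adjoining numbers group arrays by number only, which did not pair control with siTRPC1 samples. The last set includes replicate 5, left out of the main fit. By these sets the log2FC was 1.32 in replicates 1 and 2, 1.09 in 3 and 4, and -0.11 in 5 and 6. With adjoining arrays as a random block it was 0.87 (adjusted p = 0.0578), and without control 1 and control 2 it was 0.62 (adjusted p = 0.0625). Leaving out siTRPC1 3 or siTRPC1 4 also ended the call (adjusted p = 0.0739 and 0.0734), while without control 6 the log2FC was 1.13 (adjusted p = 0.000751). RefSeq lists the pseudogenes IPO7P1 and IPO7P2. The paper's list of changed genes gives IPO7 and IPO7P2 as separate entries with the same values. Whether the probe also reads the pseudogenes was not tested.

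NUP43, a small propeller subunit of the Y complex, was the other gene called. The Y complex is the scaffold of the outer rings and also sits at kinetochores in mitosis. The NUP43 probe was detected on 1 of 5 control arrays and 5 of 5 siTRPC1 arrays, so it passed the detection filter through the siTRPC1 arrays. On the other 4 control arrays the value was not above background, and the size of the difference is uncertain for that reason. Control arrays 1, 2, 3, 4 and 6 read 6.17, 6.60, 6.75, 6.73 and 7.26, and siTRPC1 arrays read 7.23, 7.41, 7.67, 7.67 and 7.48. Only control 6 reached the siTRPC1 range, as for IPO7, and control 1 was the lowest array for both genes. The fitted log2FC was 0.79 (SE 0.20, interval 0.38 to 1.20), from 6.70 ± 0.39 to 7.49 ± 0.19 (SD, n = 5 each), with adjusted p = 0.0484 (limma) and exact permutation p = 0.0159. The signal was dim, with raw intensities of 36.9 to 133 in controls and 158 to 214 in siTRPC1.

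Control 5 read 7.52 and siTRPC1 5 read 7.63 for NUP43, and over 12 arrays the log2FC was 0.68 (adjusted p = 0.0706). By replicates 1 and 2, 3 and 4, and 5 and 6 it was 0.94, 0.93 and 0.16. The call was kept in 1 of 10 fits that left out an array, that without control 6 (adjusted p = 0.0133), and the adjusted p in the other 9 ran up to 0.133. With the replicate number as a block the adjusted p was 0.0507. With adjoining arrays as a random block it was 0.170, and without control 1 and control 2 the log2FC was 0.58 (adjusted p = 0.188).

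**Figure D2:**
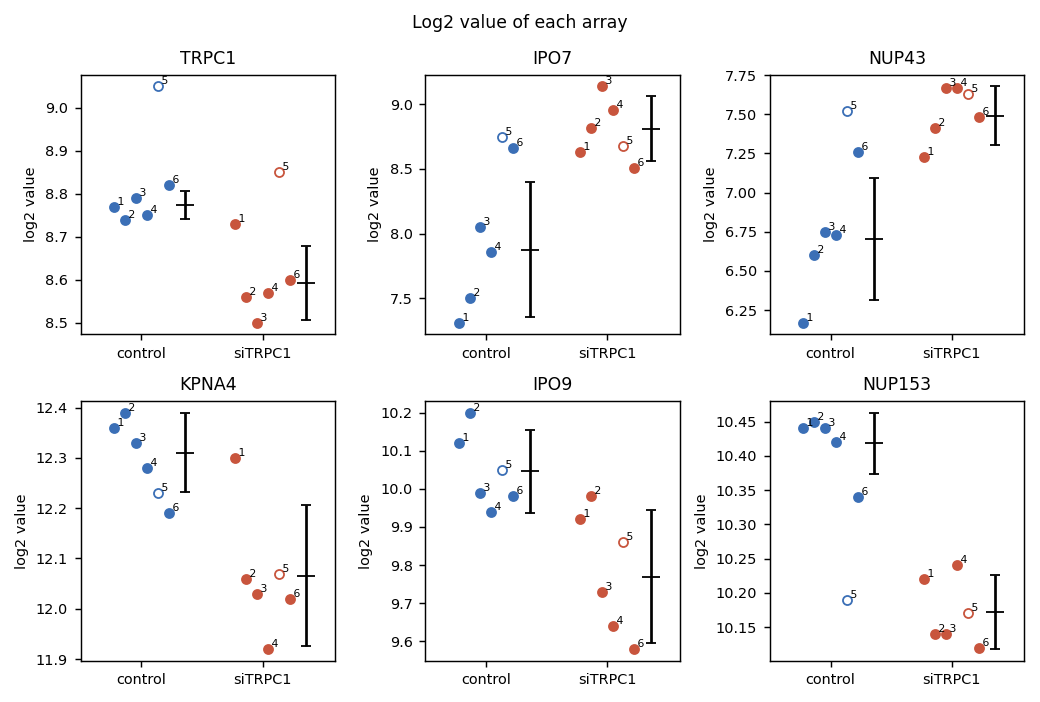
Log2 value of each array for TRPC1, IPO7, NUP43, KPNA4, IPO9 and NUP153, with replicate numbers beside the points, replicate 5 open, and the mean ± SD of the 5 arrays used as a bar; each y axis has its own range. Control 5 and control 6 of IPO7 (8.75 and 8.66) and of NUP43 (7.52 and 7.26) sit above the other controls.

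**Figure D3:**
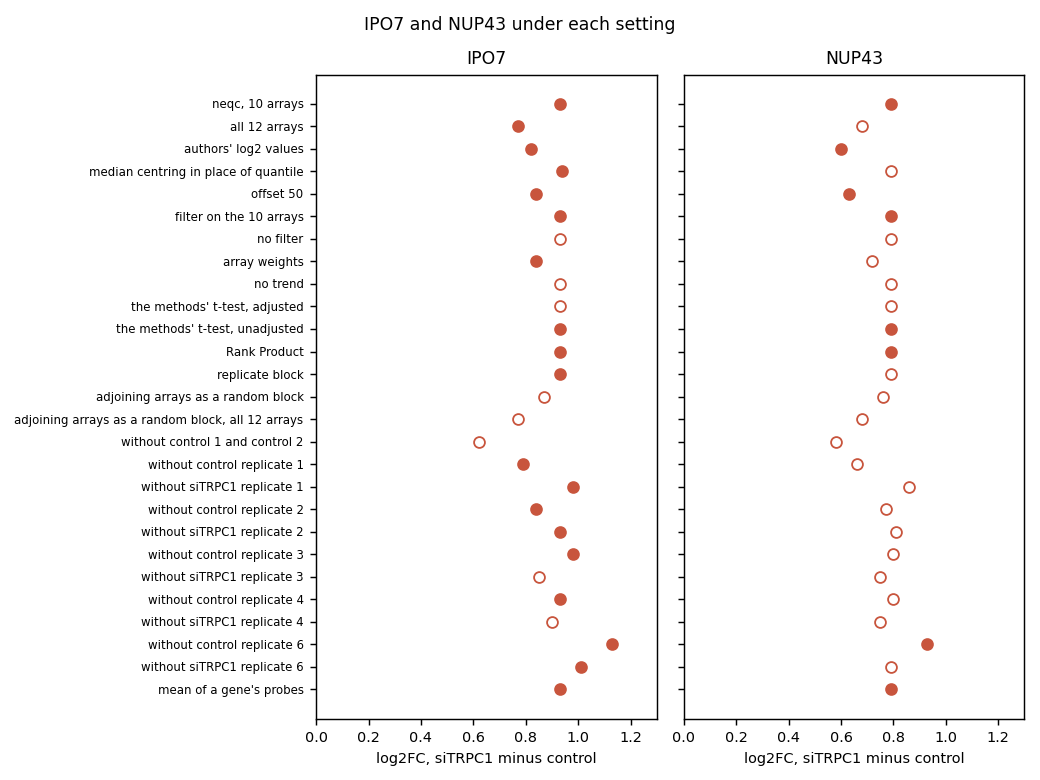
Log2FC of IPO7 (left) and NUP43 (right) under each setting, filled where p was under 0.05 by that setting's own rule (without adjustment where the label says unadjusted). IPO7 ranged from 0.62 to 1.13 and NUP43 from 0.58 to 0.93, all above 0.

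Importin alpha adaptors read the classical nuclear localisation signal and hand the cargo to KPNB1. Of 5 tested, 0 were called (1.15% of all named genes in either direction) and the median log2FC was -0.04. KPNA4, which takes NF-kappaB subunits among its cargo, had the lowest value. Controls 1, 2, 3, 4 and 6 read 12.36, 12.39, 12.33, 12.28 and 12.19, against 12.30, 12.06, 12.03, 11.92 and 12.02 in siTRPC1. Apart from siTRPC1 1, all siTRPC1 arrays lay below the controls. The log2FC was -0.24 (SE 0.07, adjusted p = 0.0969, exact permutation p = 0.0238), and over 12 arrays -0.23 (adjusted p = 0.0645). It passed only without siTRPC1 1 (-0.30, adjusted p = 0.0452) among the 10 fits that left out an array. By sets of replicates it was -0.20, -0.33 and -0.16. KPNA6 was highest at 0.14 (adjusted p = 0.397), and the 2 KPNA2 probes gave -0.17 and -0.03.

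Of the 11 receptors of the importin beta family, IPO7 was called higher (0.747% of all named genes) and 10 did not pass. The median log2FC was -0.01. IPO8 is the paralog of IPO7 and was added to the genes described after its values were seen. It read 8.94, 9.20, 8.64, 8.85 and 8.67 in control and 8.89, 8.99, 8.74, 8.92 and 8.68 in siTRPC1. Its log2FC was -0.01 (interval -0.25 to 0.22, adjusted p = 0.972). By sets of replicates the log2FC of IPO8 was -0.13, 0.09 and -0.15, against 1.32, 1.09 and -0.11 for IPO7. The difference between IPO7 and IPO8 was not tested. IPO9, a carrier of histones H2A and H2B and of actin, was lowest. It read 10.12, 10.20, 9.99, 9.94 and 9.98 in control and 9.92, 9.98, 9.73, 9.64 and 9.58 in siTRPC1. The log2FC of IPO9 was -0.28 (SE 0.09, adjusted p = 0.132; 12 arrays -0.26, adjusted p = 0.0920), with -0.21, -0.28 and -0.30 in the 3 sets of replicates.

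KPNB1, the receptor that works with the alpha adaptors, varied little between arrays. Its 5 control arrays (13.75 to 13.80) lay above its 5 siTRPC1 arrays (13.66 to 13.74), but by only -0.09 on the log2 scale (SE 0.05, adjusted p = 0.438), and control 5 (13.62) ended the separation. IPO11, which carries a ubiquitin-conjugating enzyme, had -0.27 (adjusted p = 0.191), and this came from replicates 1 and 2 (-0.66), against -0.06 in 3 and 4 and 0.01 in 5 and 6. IPO5, a carrier of ribosomal proteins and histones, had -0.22 (adjusted p = 0.261) and IPO4 -0.14 (adjusted p = 0.385). The transportins TNPO1, TNPO2 and TNPO3, which carry RNA-binding and splicing proteins, had 0.11, 0.17 and 0.12 (adjusted p = 0.485, 0.342 and 0.401).

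Among 5 exportins 0 were called (1.15% of all named genes in either direction). Of these, 4 lay below 0 (51.4% of all named genes), and the median log2FC was -0.08. XPO1, the receptor for leucine-rich export signals, read 13.18, 13.12, 12.63, 12.83 and 12.88 in control and 12.79, 12.97, 12.36, 12.51 and 12.73 in siTRPC1. The ranges overlapped and the log2FC was -0.26 (SE 0.11, adjusted p = 0.217; 12 arrays -0.26, adjusted p = 0.146). Without control 1 and control 2 it was -0.11. XPO7 was highest at 0.10 (adjusted p = 0.625), and CSE1L, which returns importin alpha to the cytoplasm, gave -0.02 and -0.03 on its 2 probes.

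The 5 genes of the RAN cycle had a median log2FC of 0.15. Of these, 4 lay above 0 (48.6% of all named genes) and 0 were called (1.15% of all named genes in either direction). RAN read 10.79, 10.69, 10.74, 10.81 and 10.89 in control and 10.99, 10.82, 10.96, 11.03 and 10.99 in siTRPC1. Only siTRPC1 2 fell inside the control range. The log2FC of RAN was 0.17 (SE 0.07, adjusted p = 0.217, exact permutation p = 0.0159). Control 5 (10.93) and siTRPC1 5 (10.66) ran the other way, and over 12 arrays it was 0.10 (adjusted p = 0.503). RefSeq lists 9 RAN pseudogenes, and their part in the signal was not tested. RCC1, the exchange factor that loads RAN with GTP on chromatin, was highest at 0.22 on both of its tested probes (adjusted p = 0.304 and 0.544). Its brighter probe read 10.40 and 10.39 in control 1 and control 2 and 10.83 to 11.00 in controls 3, 4 and 6, and without the first pair the log2FC was 0.02. RANGAP1, which triggers GTP hydrolysis, had 0.04, and NUTF2, which returns RAN to the nucleus, had 0.15 (adjusted p = 0.808 and 0.416).

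The other 6 genes of the Y complex did not pass the test, and whether they differed from NUP43 was not tested. Their log2FC ran from -0.21 (NUP160, adjusted p = 0.225) to 0.06 (NUP133, adjusted p = 0.748), with SEH1L at -0.03, NUP85 at -0.04, NUP107 at -0.12 and NUP37 at -0.17. NUP160 was -0.46 in replicates 1 and 2 and -0.02 and -0.09 in the other sets. NUP37 was 0.00 in replicates 1 and 2 and -0.31 and -0.23 in the others.

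Of 5 inner ring genes 0 were called (1.15% of all named genes in either direction) and 4 lay below 0 (51.4% of all named genes). The median log2FC was -0.15, the lowest among the role groups, which hold few genes each. NUP205, a large scaffold protein of this ring, read 12.33, 12.42, 12.09, 12.08 and 12.05 in control and 11.97, 12.02, 12.04, 11.88 and 11.96 in siTRPC1. The groups were separate by a gap of 0.01. The log2FC was -0.22 (SE 0.08, adjusted p = 0.149), and by sets of replicates it was -0.38, -0.12 and -0.01. NUP155 had -0.17, NUP35 -0.15 and NUP93 -0.10 (adjusted p = 0.243, 0.424 and 0.559), and NUP188 was highest at 0.03.

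NUP153, the basket protein that docks importins and RAN on the nuclear side, had the widest gap among the 3 members whose groups were separate. Controls 1, 2, 3, 4 and 6 read 10.44, 10.45, 10.44, 10.42 and 10.34, and the siTRPC1 arrays 10.22, 10.14, 10.14, 10.24 and 10.12. The lowest control lay 0.10 above the highest siTRPC1 array. The log2FC was -0.25 (SE 0.07, interval -0.40 to -0.10, adjusted p = 0.0867, exact permutation p = 0.00794), or 0.842-fold. Control 5 read 10.19 and siTRPC1 5 read 10.17, and over 12 arrays it was -0.21 (adjusted p = 0.106). By sets of replicates it was -0.26, -0.24 and -0.12, and without control 1 and control 2 it was -0.23 (adjusted p = 0.196). The other basket genes, NUP50 and TPR, had -0.01 and 0.03.

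Groups that did not overlap were found for 3 of 51 genes, KPNB1, NUP153 and NUP205 (5.88%, against 3.95% of all named genes in either direction). All 3 were lower in siTRPC1 (1.88% of all named genes in that direction), and 0 were higher (2.06% of all named genes). Over 12 arrays 0 of 51 were separate (2.22% of all named genes in either direction). At an unadjusted p under 0.05, 11 genes were lower (21.6%, against 7.89% of all named genes), namely IPO5, IPO9, IPO11, KPNA4, XPO1, NUP153, NUP155, NUP160, NUP205, NUP37 and NUP54. At the same p, 3 were higher (5.88%, against 8.93%), namely IPO7, NUP43 and RAN. The lower count was also 11 with 12 arrays (8.18% of all named genes), and it was 5 without control 1 (9.80%, against 6.23%) and 6 without control 1 and control 2 (11.8%, against 6.49%). The 11 lower genes share their arrays, and 0 of them were called.

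**Figure D4:**
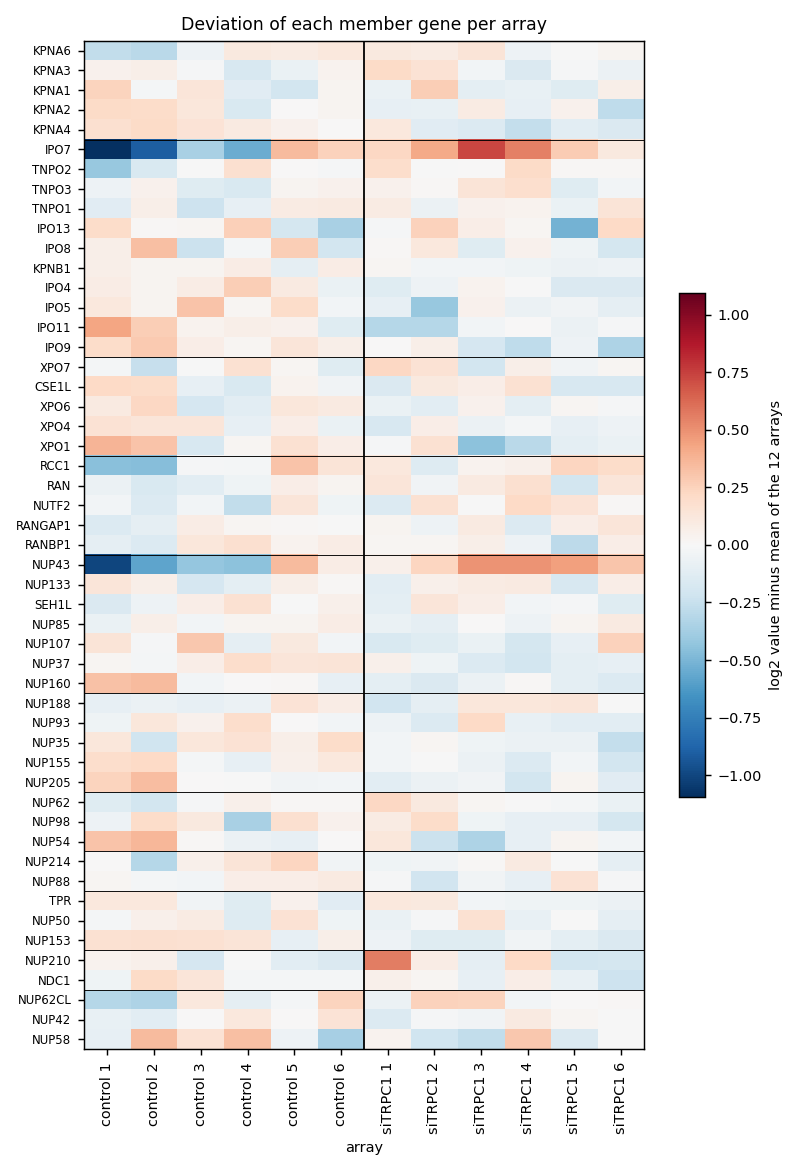
Log2 value of each tested gene on each of the 12 arrays minus its mean over the 12 arrays, with genes ordered by role and by log2FC within a role, and a vertical line between control and siTRPC1. IPO7 and NUP43 are lowest in control 1 (7.31 and 6.17), and most other rows stay near 0.

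The channel gene NUP62, which forms the central plug with NUP54 and NUP58, gave opposite values on 2 probes. The brighter probe read 12.87, 12.80, 12.99, 13.06 and 13.01 in control and 13.23, 13.11, 13.02, 13.00 and 12.93 in siTRPC1 (log2FC 0.11, adjusted p = 0.444). The dimmer probe read 8.80, 8.63, 8.40, 7.91 and 8.28 in control and 8.05, 7.97, 7.67, 8.00 and 8.11 in siTRPC1 (log2FC -0.44, interval -0.76 to -0.13, adjusted p = 0.136). Neither passed the test, and the direction for NUP62 therefore depends on the probe. NUP54 had -0.24 and -0.19 on its 2 probes (adjusted p = 0.206 and 0.488), and NUP98 had 0.01. NUP58, among the members placed outside the role groups, had -0.11 (interval -0.47 to 0.25).

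Of 11 genes with several tested probes, 1 (NUP62) differed by over 0.5 between probes and 4 had probes on opposite sides of 0 (NUP42, NUP62, SEH1L and TNPO1). XPO4 gave -0.10 and -0.42 (adjusted p = 0.532 and 0.166). TNPO1 gave 0.11, -0.12 and 0.21, and RANBP1 gave 0.00 and -0.20. The gap between probes of a gene had a median of 0.14.

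**Figure D5:**
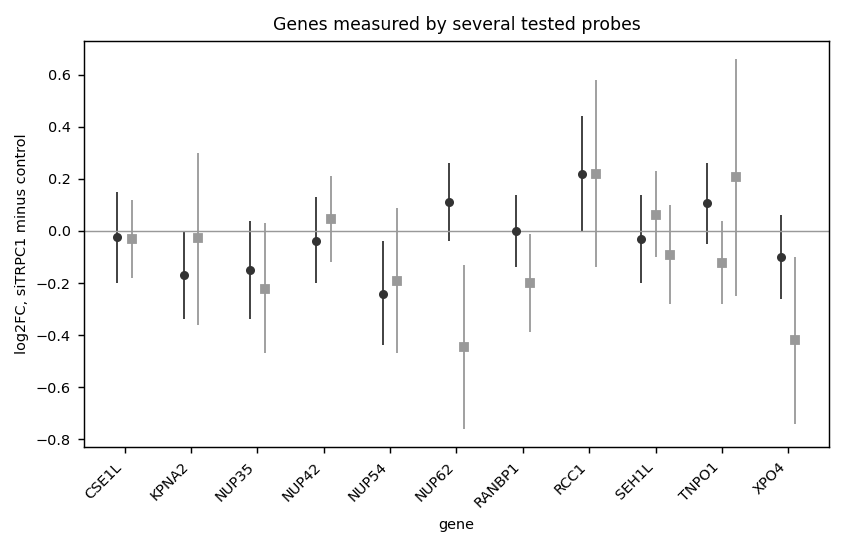
Log2FC (siTRPC1 minus control) of each probe for the 11 genes with several tested probes, with 95% confidence intervals; black circles mark the brightest probe, which was the one counted, and grey squares the others. NUP62 spans 0.11 to -0.44, while the 2 RCC1 probes both sit at 0.22.

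Values near 0 were also found at the filaments and in the membrane. On the cytoplasmic filaments, NUP214 had 0.02 and its partner NUP88 -0.10 (adjusted p = 0.949 and 0.455). In the pore membrane, NDC1 had -0.09 and NUP210 0.16 (adjusted p = 0.626 and 0.511). NUP210 read 10.15 in siTRPC1 1 and 9.40 to 9.81 in the other 4 siTRPC1 arrays, against 9.41 to 9.65 in controls. NUP62CL had 0.16 (adjusted p = 0.478), and without control 1 and control 2 it was 0.00. Over all 25 nucleoporins tested 1 (NUP43) was called higher and 0 lower, and with 12 arrays 0 were called higher. Over the 21 importins and exportins 1 (IPO7) was called higher and 0 lower. The background was 0.747% higher and 0.401% lower of all named genes, and the median log2FC was -0.04 in both sets.

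Outside these symbols, 35 further genes of nuclear transport, the lamina and the SUMO path at the pore were tested, and 0 were called higher and 1 lower (median log2FC -0.04), against 0.747% and 0.401% of all named genes. TMPO encodes the lamina-associated protein LAP2. It read 10.35, 10.30, 9.99, 10.14 and 10.14 in control and 9.88, 9.64, 9.92, 9.88 and 9.83 in siTRPC1, and the groups did not overlap. Its log2FC was -0.36 (SE 0.09, adjusted p = 0.0479), and -0.37 over 12 arrays (adjusted p = 0.0123). Of 16 alternative settings, 7 kept the TMPO call, among them a setting without adjustment, and 9 lost it. The call was lost with the replicate number as a block (adjusted p = 0.0753). It was also lost with adjoining arrays as a random block over 10 or 12 arrays (adjusted p = 0.143 and 0.0550). Further losses came without a detection filter (adjusted p = 0.189), without trend (0.111) and with array weights (0.0616). Rank Product, the paper's method, did not call TMPO either (0.678). Without control 1 and control 2 the log2FC was -0.26 (adjusted p = 0.191), and the call was kept in 2 of 10 fits that left out an array. LMNB2, a lamin of the B type, was called with 12 arrays only (log2FC -0.27, adjusted p = 0.0355, with 0.647% of all named genes called lower). With 10 arrays it was -0.24 (adjusted p = 0.109). SUN2 had the highest value of the 35 and was not called (log2FC 0.25, adjusted p = 0.109). Over 12 arrays SUN2 had 0.24 (adjusted p = 0.0657). Of the 18 other transport factors and pore proteins, 0 were called, with values from -0.17 (MCM3AP) to 0.14 (ALYREF).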

How the data were processed

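Total RNA from Huh7 cells, 6 control and 6 siTRPC1 samples, was hybridised to HumanHT-12 v3 BeadChips. The authors deposited raw probe intensity values with a detection p-value for each probe. They also deposited log2 values, made per the methods by background subtraction in GenomeStudio and quantile normalisation in lumi, which served as an alternative. The main values were computed from the deposited intensity and detection p-value columns with neqc in limma 3.58.1 (R 4.3.3), which corrects background by normexp with an offset of 16 and normalises by quantiles over 12 arrays. Probes detected (p under 0.01) on 5 or more of 12 arrays entered the test with lmFit and eBayes (with trend) on 5 control and 5 siTRPC1 arrays, adjusted by Benjamini-Hochberg over 13102 probes at 0.05. Exact permutation tests were two-sided over 252 splits of 10 arrays or 924 of 12. The number of arrays limits precision.

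Described genes were TRPC1, members called with 10 or 12 arrays, the highest and lowest log2FC of each role group, members with non-overlapping groups or with probes differing by over 0.5, and other pathway genes where called. Other members are given in short. IPO8, SUN2 and some values of members outside this rule were added after values were seen. The members and lists were chosen with earlier results of these data known. 1 matching symbol is not reported here. Replicate numbers did not pair samples (same-number correlation of deviations -0.07 to 0.03). The fit was tested on simulated data. Alternatives tried were all 12 arrays, the authors' log2 values, median centring, an offset of 50, other detection filters, array weights, no trend, the methods' t-test, Rank Product, blocks, leaving out arrays, and averaging probes. Promoters and pseudogene names came from RefSeq.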

Additional observations from a re-analysis of the deposited data

Results flagged for a closer look

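In 7 of 104 sample groups of 5 arrays, 1 array stood far from the other 4, where chance gives about 1 in 20. Log2 values of NUP107 were 12.22 in siTRPC1 6 and 11.77 to 11.89 in the other siTRPC1 arrays. NUP133 read 10.91 in siTRPC1 1 and 11.08 to 11.13 in the others, but siTRPC1 5, left out here, read 10.85. NUP188 read 9.91 in control 6 and 9.74 to 9.76 in the others, but control 5, left out here, read 9.98. NUP35 read 9.58 in control 2 against 9.92 to 10.00, and 9.54 in siTRPC1 6 against 9.74 to 9.82. NUP93 read 11.55 in siTRPC1 3 against 11.18 to 11.28. NUP153 read 10.34 in control 6 against 10.42 to 10.45, the nearest to the siTRPC1 arrays among the 5 controls used, but control 5 read 10.19. For the other flagged groups replicate 5 lay nearer to the other arrays. It read 11.88 (NUP107, siTRPC1), 9.86 and 9.74 (NUP35, control and siTRPC1) and 11.22 (NUP93, siTRPC1).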

How the results depend on the processing

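Of 51 genes, the number called higher was 2 and became 1 (IPO7) with all 12 arrays, median centring, array weights or the replicate block, and 0 without a detection filter (adjusted p for IPO7 = 0.0538), without trend (0.103), with the methods' t-test after adjustment (0.196), with adjoining arrays as a random block over 10 or, added after seeing the data, 12 arrays (0.0578 and 0.0666), and without control 1 and control 2 (0.0625). It ran from 0 to 2 when an array was left out. Rank Product, run here on the main values, and the limma fit of the authors' log2 values called both IPO7 and NUP43. The paper's own Rank Product list holds IPO7 among its higher genes and does not hold NUP43. The number called lower was 0, and 0 to 1 when an array was left out. The methods' t-test unadjusted called 7 lower and 3 higher, and it called 1908 of all 13102 tested probes in either direction. The median log2FC was -0.031, with -0.063 under median centring (all named genes -0.028) and -0.049 to -0.014 when an array was left out. The log2FC of TRPC1 was -0.18, past the threshold by the methods' t-test unadjusted (-0.18) and -0.22 to -0.16 when an array was left out. These TRPC1 values come from arrays chosen by their TRPC1 readout. Some log2FC changed sign. NUP214 (0.02) was -0.03 with 12 arrays, 0.00 under median centring, -0.02 with array weights, -0.03 with the random block over 12 arrays and -0.07 without control 1 and control 2. IPO8 (-0.01) was 0.04 with array weights and 0.13 without that pair, and NUP62 was -0.17 as the mean of its probes. When an array was left out, IPO8 ran from -0.07 to 0.07, NUP214 from -0.05 to 0.06, RANBP1 from -0.04 to 0.04, NUP188 from 0.00 to 0.08 and TPR from 0.00 to 0.06. Over all tested probes 164 were called, with 17 without trend, 4 by the t-test adjusted and 1908 unadjusted. There were 30 and 43 with the random block, and 37 to 306 when an array was left out. The fit without a filter (34 called) and Rank Product (58 called) took all 48803 probes and all 56 genes, not the 13102 probes and 51 genes tested. The replicate block changed no other member call than that of NUP43 (adjusted p = 0.0507). The numbers do not pair the samples by the labels. NUP43 lies near background in controls, which limits its fold. The causes were not tested.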
